A study of Arabidopsis thaliana with 34 samples.

Results

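The 6 kinds of F1 hybrid seedling that can be made among the Arabidopsis thaliana accessions C24, Ler and Col were compared, as 1 group, with the 3 accessions themselves. Of the 34 libraries of the series, the 18 lettered A and B were used, 12 from hybrids (C24xLer, LerxC24, C24xCol, ColxC24, ColxLer and LerxCol) and 6 from inbreds (C24, Ler and Col), with 2 libraries per genotype. Each genotype had the same weight, so every accession gave an equal share to both sides of the comparison. The rule used the labels alone and no measured value.

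An F1 hybrid carries 1 complete chromosome set from each inbred parent. Where the hybrid grows larger than its parents, this is called heterosis or hybrid vigour, and it is well known in crosses of C24. The usual yardstick for a transcript is the mid-parent level, which a hybrid shows if its alleles act as they do in the parents and simply add up. Here the mean of all inbreds takes the place of the mid-parent.

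All plants were wild-type seedlings without a transgene or treatment, 15 days old, grown on agar. RNA came from the whole shoot, and each library was made from a pool of 5 to 15 seedlings. The labels call the libraries biological replicates but give neither the seed parent of a cross nor the meaning of the letters. In such tissue pools fewer cells of a type and less RNA per cell cannot be told apart.

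Total counts were 72386257 to 86704381 per hybrid library and 73027861 to 84540469 per inbred library. Depth, the shares of plastid, mitochondrial and most abundant loci and the normalization factors were compared over genotype means, and no measure passed a two-sided exact permutation test (6 against 3 genotypes, adjusted p 0.238 to 0.762). With so few genotypes, a single measure could not pass after adjustment even if its groups were fully separated. The test therefore cannot show that the groups were alike. The 20 most abundant loci held 12.8% of counts in hybrids and 12.2% in inbreds on average. Leaf mesophyll markers summed to 30388 to 42560 CPM (counts of a gene per 1000000 counted) in hybrids and 31336 to 37475 in inbreds, whereas 7 root markers summed to 7.39 to 9.93 CPM and 2 pollen markers to 1.94 to 2.71 CPM over all 18 libraries. None of these markers was at 0 throughout. The hybrid labels were checked with 14 to 44 genes per parent that were at least 20-fold higher in 1 parent of a cross. These genes reached medians of 43.1% to 57.3% of that parent's level in 11 hybrid libraries. In library LerxC24 B they reached 30% for C24 and 75.4% for Ler, so the counts below were also made without it.

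Hybrids and inbreds differed in many transcripts, mostly by small amounts. Of 29777 genes tested, 3952 (13.3%) passed an adjusted p of 0.05 in edgeR's quasi-likelihood test, 2197 higher (7.38%) and 1755 lower (5.89%) in hybrids. Without library LerxC24 B there were 3794, 2082 higher and 1712 lower. Among the 1435 genes that were higher on both scales described next (4.82%), the median log2 difference was 0.25. Among the 1645 that were lower on both (5.52%), it was −0.29. A change of at least 2-fold was found for 34 and 33 of these genes. The count of 3952 rests on treating the letter as a block and fell to 727 (2.44%) without it, 508 higher (1.71%) and 219 lower (0.735%). It ranged from 2033 without library Ler A to 5169 without Col B when each library was left out.

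The averages were taken on the log scale, where a gene that 1 accession barely expresses lies above the inbred mean in any hybrid that expresses the other parent's allele. A second contrast therefore compared mean CPM, for which such a gene gives 0 if its alleles add up in CPM. On that scale 3304 genes passed (11.1%), 1443 higher (4.85%) and 1861 lower (6.25%), and 3080 (10.3%) passed in the same direction on both scales. The 762 genes that were higher on the log scale but not in mean CPM had a median largest difference between accessions of 2.28 log2 units, against 0.36 over all genes. Of these 762 genes, 91.73% differed between accessions in their own tests, against 41.1% of all genes. Single genes named below as risen or fallen passed on both scales unless the text says otherwise, and counts over lists are those on the log scale.

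**Figure D1:**
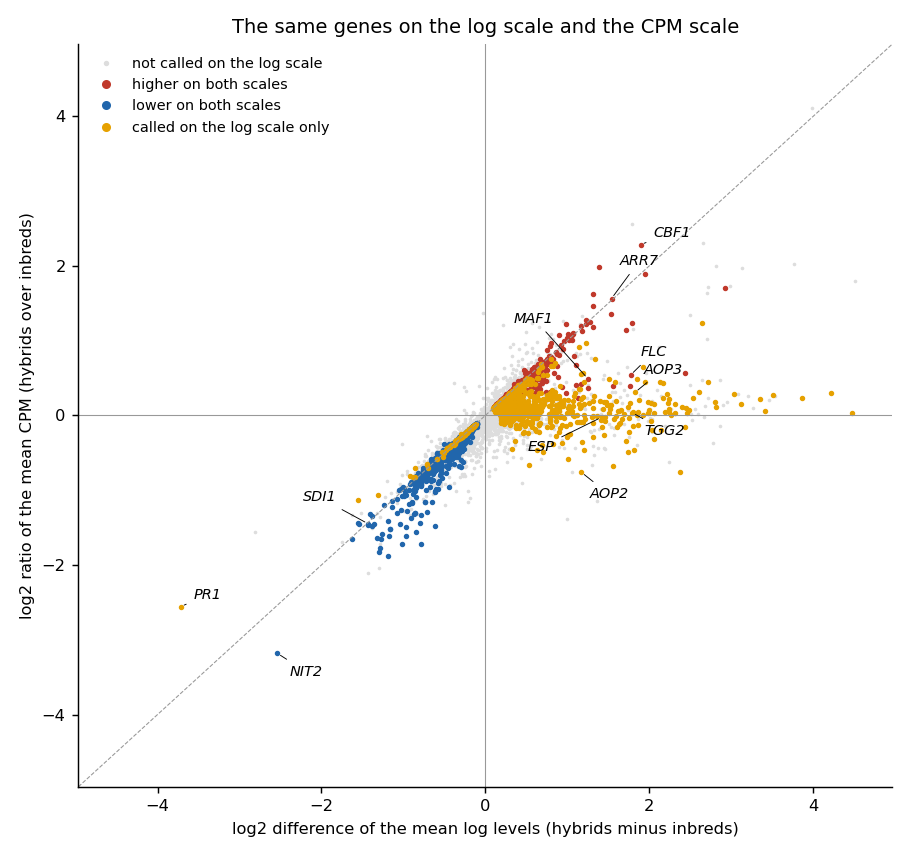
Each point is 1 of the 29777 genes tested; the horizontal axis gives the log2 difference of mean log levels (hybrids minus inbreds), the vertical axis the log2 ratio of mean CPM, and the dashed line marks equality. The 762 genes higher on the log scale alone (yellow, right of 0) spread along the horizontal axis, as TGG2, ESP and AOP2 do, while SDI1 and CBF1 lie near the dashed line.

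The lists of pathway genes moved unevenly. The longest runs of falls were among genes of sulphur deficiency (10 of 13), glucosinolate synthesis (16 of 24) and flavonoid and anthocyanin synthesis (13 of 20). Rises were found for 8 of 18 PIF and bHLH growth regulators, 12 of 37 auxin genes and 12 of 39 photosystem, light-harvesting and Rubisco genes, with falls in 1, 0 and 0 of them. Over all genes tested 7.38% were higher and 5.89% lower, and the median log2 difference was 0.0025.

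**Figure D2:**
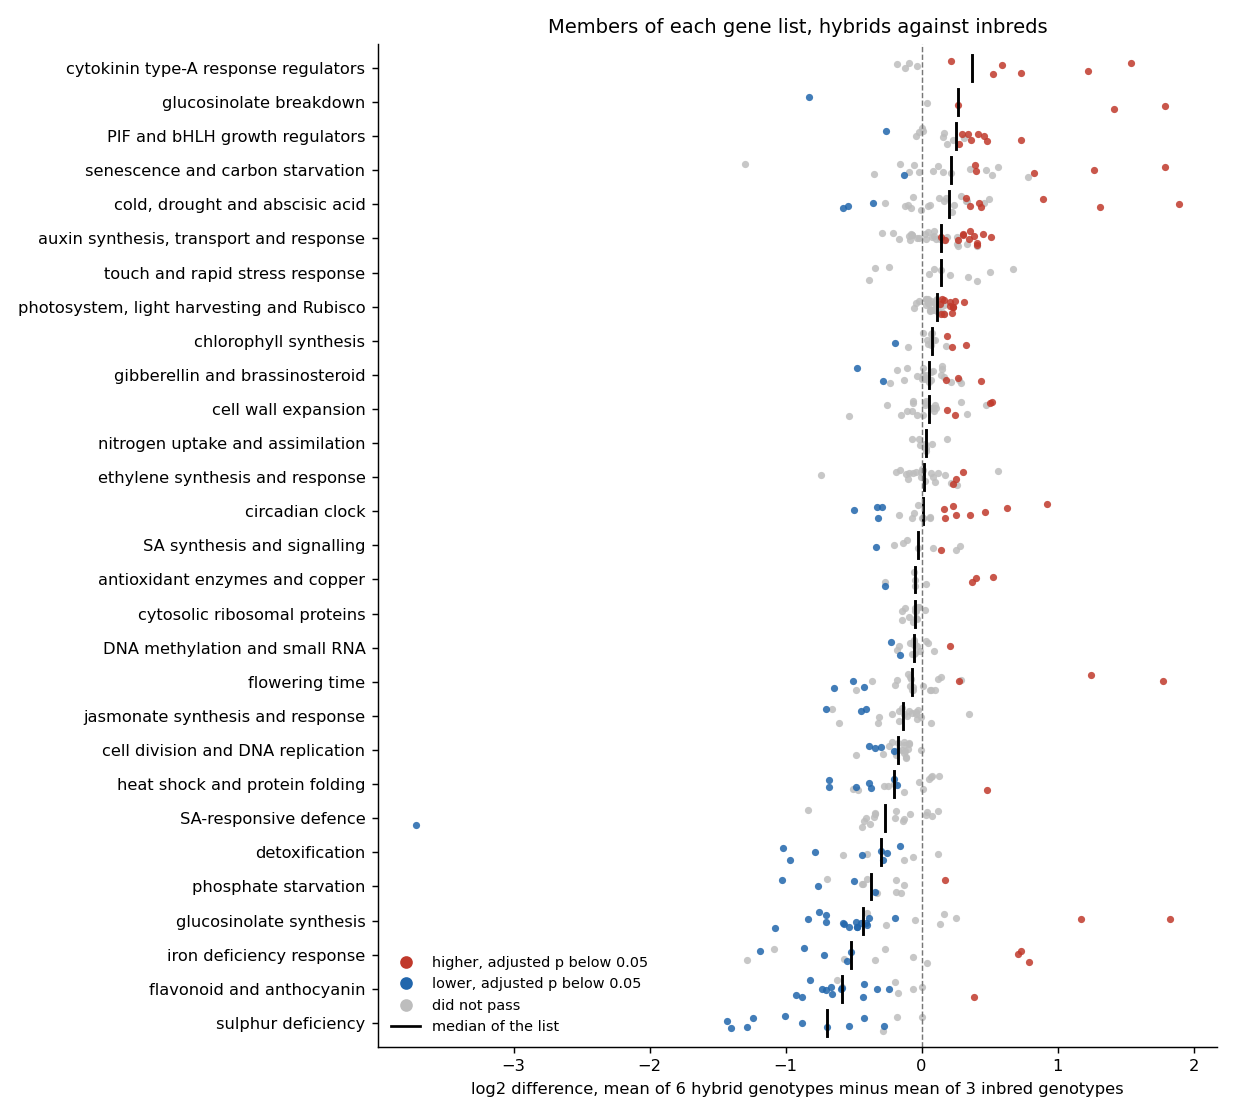
Each point is 1 gene of the list named on the left, placed by its log2 difference between the mean of the 6 hybrid and the mean of the 3 inbred genotypes; red and blue points passed an adjusted p of 0.05, grey points did not, and the black bar is the list's median. The medians run from −0.70 for sulphur deficiency to 0.37 for the type-A response regulators, both lists with most called genes on 1 side.

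Cytokinin response genes gave the cleanest separation of the 2 groups. The type-A ARR genes are switched on rapidly by the hormone cytokinin and dampen its signalling. ARR7 stood at 20.3 to 69.6 CPM in hybrids (median 28.8) and at 6.08 to 17.0 CPM in inbreds (median 15.0). ARR6 stood at 16.0 to 42.7 CPM in hybrids (median 23.7) and at 6.71 to 15.3 CPM in inbreds (median 13.5). For both genes every hybrid library was above every inbred library, and the hybrids with Col parents in letter B were the highest. The log2 difference was 1.54 ± 0.20 (SE; adjusted p = 0.00135) for ARR7 and 1.22 ± 0.11 (adjusted p = 0.000103) for ARR6.

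Of 10 type-A genes, 6 rose and none fell, with a list median of 0.37. This list was drawn up after ARR6 and ARR7 had been seen, so its count is a description only. ARR4 ran from 61.2 to 113 CPM in hybrids against 31.0 to 75.2 in inbreds, with 8 of 12 hybrid libraries above the highest inbred, and rose by 0.73 ± 0.09 (adjusted p = 0.000305). ARR15, ARR5 and ARR9 rose by 0.59, 0.52 and 0.22, while ARR3, ARR8, ARR16 and ARR17 lay between −0.18 and −0.03 and did not pass. The count was 4 without C24 A, C24 B or Ler A, and 3 without the block.

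Only 5 of 29777 genes (0.0168%) had no overlap between the 12 hybrid and the 6 inbred libraries. Besides ARR7 and ARR6, 2 loci without a symbol lay above all inbreds (4 genes above, 0.0134%, and 1 below, 0.00336%). They were AT3G15358, with 4.72 to 6.48 CPM in hybrids against 3.68 to 4.63 in inbreds, and AT5G15390, with 21.037 to 23.7 against 19.8 to 21.034 CPM. Lying below all inbreds was PIRL9, a leucine-rich-repeat protein gene, at 17.5 to 20.2 CPM in hybrids and 21.7 to 22.9 in inbreds. The separation was thus wide for the 2 ARR genes and narrow for the other 3, whose log2 differences were 0.42 ± 0.07, 0.14 ± 0.04 and −0.24 ± 0.04. PIRL9, AT5G15390 and ARR6 overlap a second gene in the annotation, which makes their counts less certain.

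**Figure D3:**
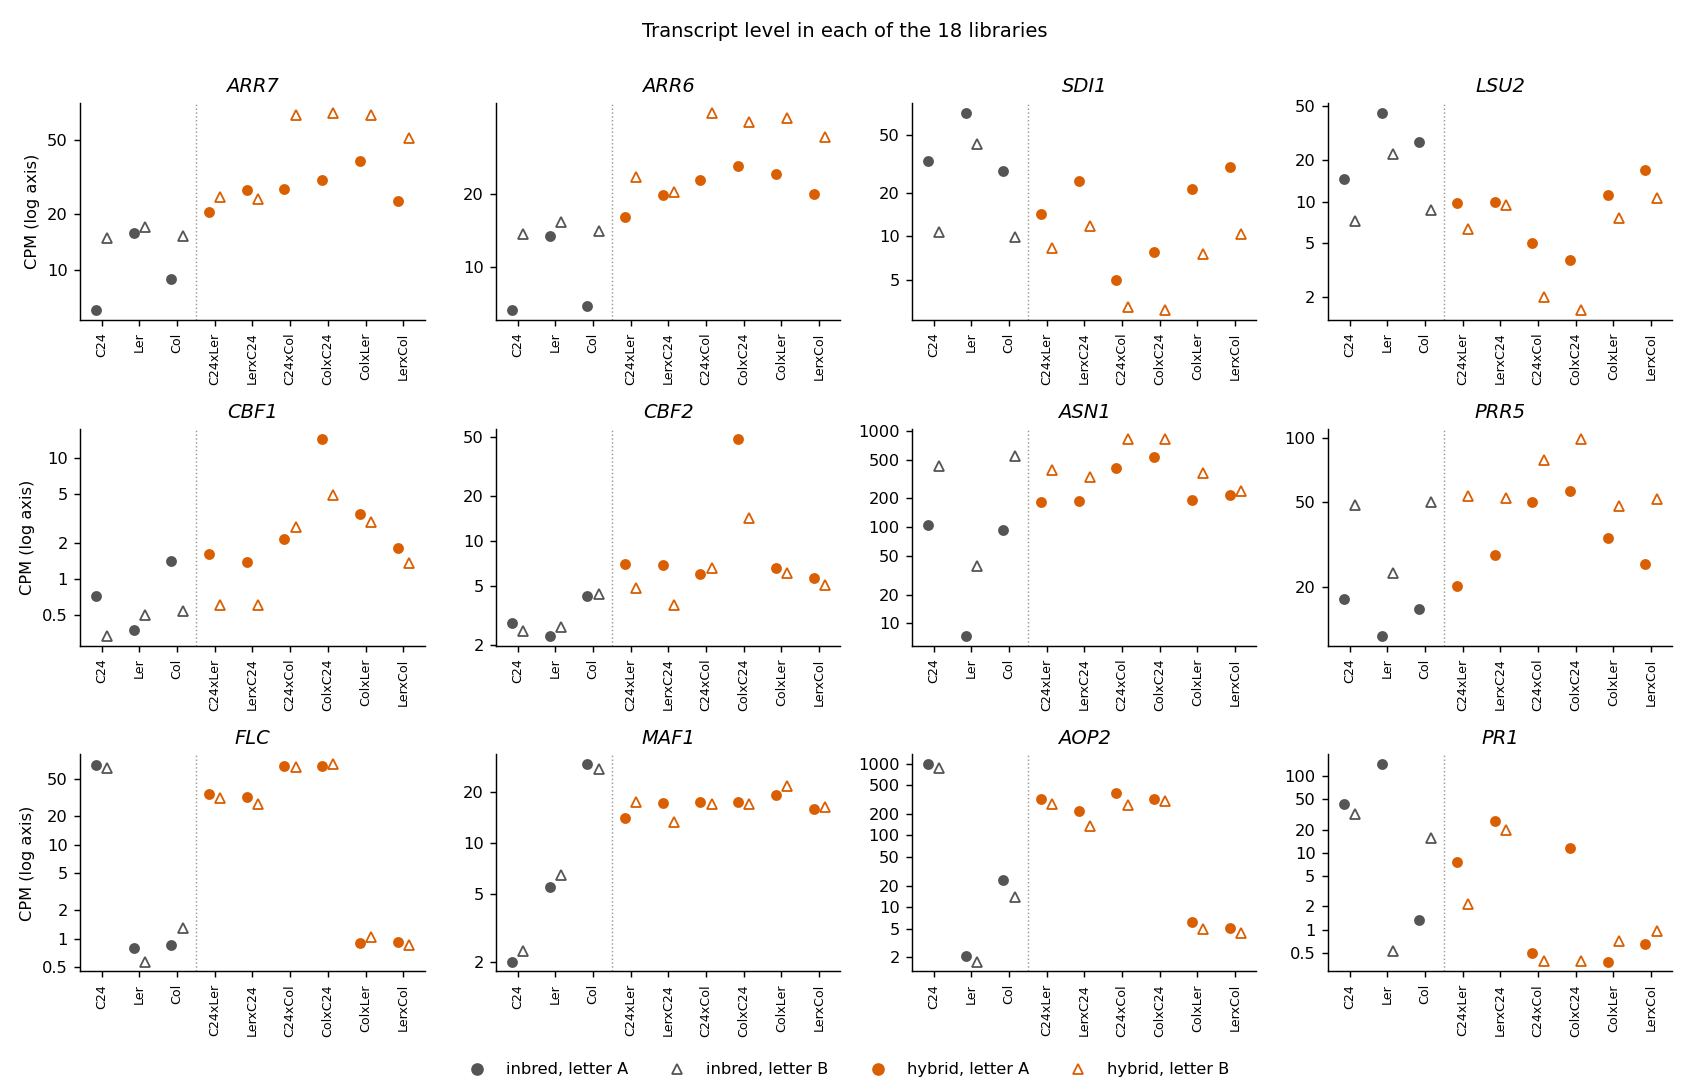
Each panel shows 1 gene, with CPM on a log axis and 1 symbol per library (filled circles letter A, open triangles letter B; grey inbreds, orange hybrids). ARR7 and ARR6 show no overlap between the groups, SDI1 and LSU2 have their lowest values in hybrids of C24 and Col, CBF1 and CBF2 are highest in ColxC24, and the PR1 value of 144 CPM in Ler A stands above all others.

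Genes that plants switch on when sulphate runs short were lower in hybrids. They serve the uptake and reduction of sulphate and the recovery of sulphur from stored compounds. SDI1, a repressor of glucosinolate synthesis that is induced by sulphur shortage, stood at 3.11 to 30.1 CPM in hybrids (median 9.36) and 9.93 to 71.2 in inbreds (median 30.5). LSU2, 1 of a family of small sulphur-responsive proteins, stood at 1.61 to 17.1 CPM (median 8.48) against 7.19 to 44.7 (median 18.5). In both genes the groups overlapped, 6 and 5 of the 12 hybrid libraries lay below the lowest inbred, and the lowest values were in C24xCol and ColxC24 libraries (all 4 for LSU2, and the lowest 3 libraries for SDI1).

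SDI1 fell by 1.43 ± 0.12 (adjusted p = 5.31e-05) and LSU2 fell by 1.40 ± 0.14 (adjusted p = 0.000252) on the log2 scale. LSU3, outside the sulphur deficiency list, and LSU1 fell by 1.55 ± 0.21 and 1.24 ± 0.15. A reservation is that the LSU genes are close copies whose reads could have been split. BGLU28, a β-glucosidase linked to glucosinolate recycling, fell by 1.28 ± 0.22 (adjusted p = 0.00553) from an inbred mean that Ler led with 73 CPM against 10 in C24 and 5.79 in Col.

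The 3 APR genes encode the reductase that commits sulphate to assimilation, and all of them fell. APR2 was at 90.11 to 241 CPM in hybrids and 212 to 251 in inbreds, and 11 of 12 hybrid libraries lay below the lowest inbred. Its change was −0.53 ± 0.07 (adjusted p = 0.000721), beside −0.88 ± 0.10 for APR1 and −0.70 ± 0.10 for APR3. Of the sulphate transporters, SULTR4;2, which empties the vacuole, fell by 0.42 ± 0.10, whereas SULTR1;1, SULTR1;2 and SULTR2;1 did not pass (−0.18, −0.29 and 0.00). AT1G04770 and the glutathione-degrading enzyme GGCT2;1 fell as well. The letters GAGAC or their reverse complement GTCTC, the core of a sulphur-responsive element, stood in 3 of 13 windows of 250 bases before these genes' starts (23.1%) and in 25.8% of all windows. The list median was −0.70. Between 8 and 10 members passed whichever library was left out, and 3 passed without the block.

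Glucosinolates are sulphur-rich defence compounds of the cabbage family, and most of their synthesis genes were lower too. CYP79F1 and CYP79F2 start the core pathway of the methionine-derived kind. CYP79F2 was at 1.66 to 4.97 CPM in hybrids (median 2.96) and 2.85 to 13.5 in inbreds (median 5.94), and fell by 1.08 ± 0.13 (adjusted p = 0.000468). CYP79F1 was at 24.8 to 198 CPM (median 63.8) against 48.9 to 358 (median 132), and fell by 0.83 ± 0.11 (adjusted p = 0.00113). Both groups overlapped widely in CYP79F1, because C24 carried about 257 CPM on average and Ler 78.6.

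Falls ran through the pathway. The flavin monooxygenase FMOGS-OX1, which oxidises the side chain, fell by 0.75 ± 0.09, and the sulphotransferase SOT17, which completes the core, fell by 0.70 ± 0.07 (adjusted p = 5.95e-05). The shared steps SUR1 (−0.57 ± 0.07) and UGT74B1 (−0.53 ± 0.09) fell, as did CYP83A1, BCAT4 and the transporter gene BAT5 by 0.41 to 0.47. Of the regulators, MYB28, MYB29 and MYB34 fell by 0.20, 0.39 and 0.40, and MYB51 did not pass (0.25). The list median was −0.43, with 16 of 24 lower and 2 higher. The 2 higher were AOP2 and AOP3, which did not rise in mean CPM. Without Ler A 12 passed as lower and without the block 1.

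Breakdown of glucosinolates is started by myrosinases and steered by specifier proteins. The nitrile-specifier gene NSP5 was at 37.9 to 74.2 CPM in hybrids and 53.0 to 194 in inbreds and fell by 0.83 ± 0.08 (adjusted p = 0.000106). The myrosinase gene TGG1 ran from 2674 to 4505 CPM in hybrids and from 2096 to 4452 in inbreds, overlapping in most of the range, and rose by 0.27 ± 0.05 (adjusted p = 0.00197). The nitrilase gene NIT2 showed the largest fall of the genes named by rule that passed on both scales, −2.54 ± 0.55 (adjusted p = 0.0187). It stood at 161 and 109 CPM in the Ler libraries, 3.19 to 13.1 in the C24 and Col libraries, and 0.394 to 33.3 in hybrids. NIT2 is best known for the conversion of nitriles such as indole-3-acetonitrile.

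Flavonoid and anthocyanin genes, which make the red pigments and sunscreens of stressed shoots, were lower in hybrids for 13 of 20 members and higher for 1. TT4, the chalcone synthase gene that opens the pathway, ranged over 50.05 to 181 CPM in hybrids (median 97.8) and 74.3 to 332 in inbreds (median 177). DFR, which leads on to anthocyanin, ranged over 15.8 to 83.0 CPM (median 42.8) against 24.6 to 101 (median 59.1). UF3GT, which decorates anthocyanins with sugar, ranged over 1.42 to 14.4 CPM (median 4.71) against 2.68 to 26.1 (median 10.08). Groups overlapped in all of them, and 4 of the 12 hybrid libraries lay below the lowest inbred in each. Letter A was higher than letter B within every genotype for DFR and UF3GT, and within every genotype but LerxCol for TT4.

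The changes were −0.70 ± 0.19 for TT4 (adjusted p = 0.0399), −0.67 ± 0.14 for DFR (adjusted p = 0.0129) and −0.93 ± 0.24 for UF3GT (adjusted p = 0.0352). TT4 and UF3GT did not pass in mean CPM. PAP1, the MYB activator of anthocyanin synthesis, fell by 0.73 ± 0.08 (adjusted p = 0.000152) and the flavonol regulator MYB12 by 0.33 ± 0.07, while MYBL2, a repressor of the pathway, rose by 0.39 ± 0.09 (adjusted p = 0.0181). PAP2 and TT8 did not pass, with −0.19 and −0.17. The list median was −0.59. The number lower was 5 without library Ler A, 14 without C24xLer A, 10 without LerxC24 B and 0 without the block.

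Promoters of 3 of these pathway genes are shown because G-boxes, CACGTG, a motif read by bHLH and bZIP factors, were found in 7 of 20 windows of the list (35%) against 6.64% of all 26686 windows. Each window is the 250 bases before the annotated gene start, from RefSeq's TAIR10.1, printed 5′ to 3′ on the gene's strand, and capitals mark the motif, whose reverse complement is itself. Over all called genes the share was 8.16% of the 1361 windows of genes higher and 9.63% of the 1599 windows of genes lower on both scales. Of the 7 list members with a match, 6 fell (TT4, F3H, DFR, UF3GT, SCPL10 and MYB12), and PAP2 did not pass. A high share was not particular to this list. It was 40% for the iron genes described below (6 of 15), 38.1% for clock genes (8 of 21) and 22.7% for jasmonate genes (5 of 22). Sulphur deficiency genes (0 of 13) and cell division genes (0 of 24) had no match. A match is a string of letters, not a bound site.
TT4, chr5:4488226-4488475, + strand: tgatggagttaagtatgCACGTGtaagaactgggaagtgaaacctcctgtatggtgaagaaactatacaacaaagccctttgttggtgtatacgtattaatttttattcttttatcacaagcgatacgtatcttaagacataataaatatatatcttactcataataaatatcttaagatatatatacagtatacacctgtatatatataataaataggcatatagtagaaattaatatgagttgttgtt
DFR, chr5:17166033-17166282, − strand: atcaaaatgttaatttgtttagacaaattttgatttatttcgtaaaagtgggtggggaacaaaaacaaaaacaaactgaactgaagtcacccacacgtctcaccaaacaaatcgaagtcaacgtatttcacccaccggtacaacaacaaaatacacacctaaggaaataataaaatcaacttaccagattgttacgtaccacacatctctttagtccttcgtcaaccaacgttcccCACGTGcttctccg
UF3GT, chr5:21938397-21938646, − strand: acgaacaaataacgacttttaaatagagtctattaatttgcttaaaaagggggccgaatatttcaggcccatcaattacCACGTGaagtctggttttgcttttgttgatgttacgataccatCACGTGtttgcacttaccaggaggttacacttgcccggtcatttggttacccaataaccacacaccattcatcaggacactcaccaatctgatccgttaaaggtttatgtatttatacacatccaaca

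Phosphate starvation genes gave 4 falls and 1 rise among 14, with a median of −0.37. SPX1, a phosphate sensor that restrains the starvation response, was at 15.1 to 48.8 CPM in hybrids (median 25.8) and 23.9 to 100 in inbreds (median 56.5) and fell by 1.02 ± 0.20 (adjusted p = 0.0126). PAP17, an acid phosphatase, fell by 0.76 ± 0.09 (adjusted p = 0.000509), and the transporters PHT1;4 and PHO1;H1 fell by 0.50 ± 0.11 and 0.34 ± 0.05. The rise was in PHR1, the activator of the response, by 0.17 ± 0.03. Without the block 1 fall and 0 rises passed. In additive models 5 of the 14 were positive in letter A alone (median −0.10) and 2 in letter B alone (median −0.50). The list median was −0.06 in the C24/Ler family, −0.78 in C24/Col and −0.39 in Col/Ler. No nitrogen uptake or assimilation gene passed among 8 tested.

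In a list of 15 iron genes drawn up after values had been seen, 3 rose and 5 fell. The ferritins, which store iron in plastids, were higher. FER4 stood at 39.0 to 68.3 CPM in hybrids and 18.4 to 43.8 in inbreds, FER3 at 42.1 to 83.1 against 25.2 to 55.8, and FER1 at 347 to 771 against 174 to 474. Their groups overlapped at the edges and their rises were 0.79 ± 0.12, 0.71 ± 0.12 and 0.73 ± 0.18. Of the 12 members linked to iron shortage, 5 fell and 7 did not pass, 6 of those 7 with a negative estimate (BHLH100 −1.29, IRT1 −1.08 and FRO3 −0.57 the largest) and FRU at 0.04. The regulator BHLH39 fell by 1.19 ± 0.27 (adjusted p = 0.0208), the nicotianamine synthase NAS4 by 0.86 ± 0.24, the transporter OPT3 by 0.72 ± 0.16, the reductase FRO2 by 0.55 ± 0.11 and the ubiquitin ligase BTS by 0.52 ± 0.15. The number of these falls was 1 without C24 A or Ler A and 8 without Ler B, and 0 without the block, where the 3 ferritin rises still passed.

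Detoxification genes, tau glutathione transferases and their companions, were lower for 8 of 13 members, and the largest falls lay in genes that Ler alone expressed strongly. CYP81D8, a cytochrome P450 induced by many chemicals, was at 40.6 and 25.1 CPM in the Ler libraries, 2.97 to 4.64 in C24 and Col, and 2.44 to 9.20 in hybrids. It fell by 1.02 ± 0.22 (adjusted p = 0.0147), by 1.70 ± 0.32 in the Col/Ler family and by 0.42 ± 0.32, not passing, in the C24/Col family. GSTU24 (−0.78 ± 0.13) and the auxin-conjugating glycosyltransferase UGT74E2 (−0.96 ± 0.19) had the same shape. Outside the list, the glycosyltransferase DOGT1 (−1.17 ± 0.15) and the thioredoxin TH8 (−1.18 ± 0.17) did too, with Ler at 89.4 and 18.4 CPM. RAP2.6, an ethylene response factor gene, fell by 1.54 ± 0.32 (adjusted p = 0.00794) at levels of at most 0.302 CPM in any library. GSTU19 and GSTU20, at 407 to 1108 CPM in inbreds, fell by only 0.16 ± 0.03 and 0.26 ± 0.05.

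Heat shock and chaperone genes gave 7 falls and 1 rise among 20. HSP70, a cytosolic chaperone, stood at 8.39 to 20.05 CPM in hybrids (median 13.1) and at 15.0 to 34.8 in inbreds (median 18.17). Of the 12 hybrid libraries, 9 lay below the lowest inbred. HSP70 fell by 0.68 ± 0.07 (adjusted p = 6.35e-05), and HSP101 and HSP90.1 fell by 0.39 ± 0.06 and 0.37 ± 0.05. HSP17.6A and AT5G51440 fell by 0.68 and 0.48 with their highest inbred values in Ler. DREB2A, a drought and heat transcription factor, rose by 0.48 ± 0.10 (adjusted p = 0.00833). It was at 6.14 to 19.3 CPM in hybrids against 4.96 to 6.71 in inbreds, and ColxC24 held the 2 highest values, 19.3 and 12.4 CPM. The number of falls was 4 without Ler A and 10 without LerxC24 B.

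Of 18 salicylic acid-responsive genes 1 passed. PR1, the classical marker of the salicylic acid response, was at 44.2 and 32.1 CPM in C24, 144 and 0.519 in Ler, 1.34 and 15.5 in Col, and 0.382 to 25.8 in hybrids (median 0.833). The groups overlapped, with 4 of 12 hybrid libraries below the lowest inbred and none above the highest. The log2 difference of −3.72 ± 0.93 passed (adjusted p = 0.0325) but not in mean CPM (adjusted p = 0.193), and it was lost in 15 of 18 fits that left out a library. The other 17 salicylic acid-responsive genes did not pass and lay between −0.84 for PR2 and 0.12 for GRX480, with 14 of 18 negative and a list median of −0.27. Of 9 synthesis and signalling genes, PBS3, which conjugates isochorismate on the way to salicylic acid, fell by 0.33 ± 0.07, and the receptor gene NPR1 rose by 0.15 ± 0.04.

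Jasmonate genes gave 3 falls among 22 (median −0.13), beside 5.89% of all genes lower, and none passed without the block. In additive models 14 of the 22 were positive in letter A alone (median 0.10) and 21 negative in letter B alone (median −0.43). LOX2, a lipoxygenase of jasmonate synthesis, was at 399.8 to 1063 CPM in hybrids (median 682) and 611 to 1888 in inbreds (median 1218) and fell by 0.70 ± 0.10 (adjusted p = 0.000863). VSP2 and CORI3, responsive to jasmonate, fell by 0.45 ± 0.10 and 0.41 ± 0.06. The JAZ repressors did not pass. No member of the touch and rapid stress list passed among 11.

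Cold regulators were among the largest rises. CBF1, CBF2 and CBF3 encode neighbouring, closely similar transcription factors that switch on freezing tolerance genes, and their reads could have been split. CBF1 stood at 0.607 to 14.5 CPM in hybrids (median 1.98) and 0.339 to 1.40 in inbreds (median 0.526). CBF2 stood at 3.72 to 49.1 CPM (median 6.38) against 2.31 to 4.41 (median 2.73). Hybrid libraries lay above the highest inbred in 8 of 12 cases for CBF1 and 11 of 12 for CBF2, and ColxC24 held the highest mean of both genes, 9.72 and 31.7 CPM.

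CBF1 rose by 1.90 ± 0.27 (adjusted p = 0.0017), CBF2 by 1.31 ± 0.23 (adjusted p = 0.00576) and CBF3 by 0.90 ± 0.20 (adjusted p = 0.0181). The genes they are known to switch on did not follow evenly. KIN2 and COR413IM1 rose by 0.35 and 0.33 on the log scale alone, and COR15A, COR15B, KIN1, RD29A, COR47, ERD10 and GOLS3 did not pass, with values from 0.00 for GOLS3 to 0.50 for COR47. The abscisic acid synthesis gene NCED3 rose by 0.44 ± 0.10, while RD20, GOLS2 and the phosphatase gene HAB1 fell by 0.57, 0.54 and 0.35. In the list of 28, 7 rose and 3 fell, with a median of 0.20. The rises numbered 3 without C24 B or Ler A and 2, CBF1 and CBF2, without the block.

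Clock genes moved in both directions, 8 up and 4 down among 21. The falls were in LHY, an MYB factor at the core of the clock, by 0.33 ± 0.05 (adjusted p = 0.0017), RVE1 by 0.49 ± 0.10, RVE8 by 0.29 ± 0.05 and LNK1 by 0.32 ± 0.05. CCA1, the partner of LHY, did not pass (0.01) at 188 to 280.1 CPM in hybrids and 180 to 265 in inbreds. The rises included the pseudo-response regulator gene PRR5 by 0.92 ± 0.13 (adjusted p = 0.00179), the blue-light receptor gene FKF1 by 0.63 ± 0.06 (adjusted p = 3.23e-05), LUX by 0.47 ± 0.11, TOC1 by 0.36 ± 0.06 and GI by 0.23 ± 0.04. ELF3 and PRR7 rose by 0.17 each and PRR3 by 0.25 on the log scale alone, while ELF4, BOA, PRR9 and ZTL did not pass (−0.07 to 0.06).

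PRR5 was at 20.3 to 99.7 CPM in hybrids (median 51.1) and 11.8 to 49.98 in inbreds (median 20.4), with letter B above letter A in every genotype. FKF1 was at 8.16 to 28.8 CPM (median 14.5) against 6.53 to 12.52 (median 9.18), with 8 of 12 hybrid libraries above the highest inbred. The list median was 0.01, and none of the 12 called genes passed without the block. The labels do not give the hour of harvest.

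The evening element, AAATATCT or its reverse complement AGATATTT, is read by clock MYB factors of the LHY and RVE kind. It was found in 4.82% of all 26686 windows of 250 bases before the gene start, in 8.96% of windows of genes higher on both scales (122 of 1361) and in 4.69% of those of genes lower on both (75 of 1599). Among the clock genes 6 of 21 held it (28.6%). These were PRR5, TOC1, LUX and FKF1, which rose, and ELF4 and BOA, which did not pass. Among the cold and abscisic acid genes 7 of 28 held it (25%), CBF1, CBF2, CBF3 and RAB18, which rose, and KIN1, ZAT12 and ABI2, which did not pass. RAB18 passed on the log scale alone. The element was not confined to lists with rises. It stood in 4 of 20 flavonoid and anthocyanin windows (20%), among them the TT4 window printed above, where it is unmarked. Jasmonate genes held it in 3 of 22 windows (13.6%). Among lists with rises, PIF and bHLH growth regulators held it in 0 of 18 windows and auxin genes in 1 of 37 (2.7%). The windows of the 2 largest rises of each list are printed from RefSeq's TAIR10.1 on the gene's strand, with the element of either orientation in capitals.
CBF1, chr4:13022997-13023246, − strand: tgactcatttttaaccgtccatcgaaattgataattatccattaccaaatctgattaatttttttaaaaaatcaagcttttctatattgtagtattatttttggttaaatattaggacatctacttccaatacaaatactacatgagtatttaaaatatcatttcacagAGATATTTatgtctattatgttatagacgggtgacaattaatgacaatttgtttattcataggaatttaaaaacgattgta
CBF2, chr4:13016236-13016485, − strand: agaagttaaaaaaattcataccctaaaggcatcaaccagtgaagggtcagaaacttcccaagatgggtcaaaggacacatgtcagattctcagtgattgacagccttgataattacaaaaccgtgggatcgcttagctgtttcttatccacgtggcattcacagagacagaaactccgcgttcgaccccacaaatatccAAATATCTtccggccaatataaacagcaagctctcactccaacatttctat
PRR5, chr5:8358547-8358796, − strand: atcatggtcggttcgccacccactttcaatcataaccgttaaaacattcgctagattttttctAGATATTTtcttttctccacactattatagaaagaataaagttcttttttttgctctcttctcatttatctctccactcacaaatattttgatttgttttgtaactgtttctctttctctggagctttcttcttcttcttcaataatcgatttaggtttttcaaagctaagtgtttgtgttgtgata
FKF1, chr1:25508389-25508638, + strand: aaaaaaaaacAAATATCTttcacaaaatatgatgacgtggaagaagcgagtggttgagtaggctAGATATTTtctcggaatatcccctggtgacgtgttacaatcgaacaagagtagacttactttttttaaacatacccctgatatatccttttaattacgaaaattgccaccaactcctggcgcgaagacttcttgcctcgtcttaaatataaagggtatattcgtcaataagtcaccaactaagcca
The element stood 81 and 51 bases before the start in CBF1 and CBF2, 187 in PRR5, and at 186 and 240 in FKF1. That these letters are present does not show that a factor bound them in these seedlings.

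Growth regulators of the PIF and bHLH kind rose in 8 of 18 cases and fell in 1, with a median of 0.26. BEE1, BEE2, PRE1, PRE6 and HBI1 belong to a set of bHLH proteins that promote cell elongation under brassinosteroid, auxin and gibberellin. BEE2 was at 52.8 to 67.3 CPM in hybrids and 35.6 to 54.9 in inbreds, overlapping only at the edge, and rose by 0.34 ± 0.04 (adjusted p = 0.000156). PRE6 was at 14.7 to 28.0 CPM against 9.59 to 18.01 and rose by 0.46 ± 0.06 (adjusted p = 0.000197). The shade-induced homeobox gene ATHB2 was at 18.02 to 27.2 CPM against 10.9 to 21.2 and rose by 0.48 ± 0.08 (adjusted p = 0.00231).

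BEE1 rose by 0.73 ± 0.18 and HBI1 by 0.41 ± 0.11, while IBH1, which restrains this set, rose as well, by 0.30 ± 0.07. PIF4, the central light and warmth regulator of elongation, rose by 0.28 ± 0.08 (adjusted p = 0.0456) on the log scale alone, PIF3 fell by 0.26 ± 0.05, and PIF5 and PIF7 did not pass. The rises numbered 4 without Ler A, 10 without Col B and 3 without the block.

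Auxin genes gave 12 rises and no fall among 37 on the log scale. In mean CPM there were 7 rises and 2 falls, in the auxin-conjugating genes GH3.3 (−0.34) and GH3.5 (−0.20). IAA29, an early auxin-responsive repressor gene, was at 3.69 to 9.82 CPM in hybrids and 2.44 to 7.48 in inbreds and rose by 0.51 ± 0.09 (adjusted p = 0.00247). IAA2 rose by 0.41 ± 0.09, the efflux carrier gene PIN4 by 0.38 ± 0.08 and the small growth gene SAUR9 by 0.41 ± 0.08. The synthesis genes TAA1, YUC2, YUC5, YUC8 and YUC9 did not pass, at −0.07 to 0.17. Without Ler A 2 auxin genes passed and without the block 1. SAUR22 and SAUR23 lie among near-identical copies and are uncertain.

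Steroid and gibberellin genes were mixed, 3 higher and 2 lower among 27. CPD, a cytochrome P450 of brassinosteroid synthesis, rose by 0.44 ± 0.06 (adjusted p = 0.000429), the reductase gene DET2 by 0.18 ± 0.03 and the gibberellin receptor gene GID1A by 0.27 ± 0.03 (adjusted p = 0.000283). The DELLA gene RGL2 and the cytochrome P450 gene ROT3 fell by 0.47 and 0.28. Cell wall genes gave 4 rises among 24, of which the wall-loosening expansins EXPA11 and EXPA1 were largest, 0.52 ± 0.12 and 0.50 ± 0.10. Ethylene genes gave 3 rises among 24, with EBF2 and EIN3, a brake and an activator of the response, at 0.31 and 0.23. Over all genes 7.38% were higher, and none of the 4 cell wall or 3 ethylene rises passed without the block. The cell wall rises numbered 1 without Col A and 5 without Col B.

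Cell division and DNA replication genes leaned the other way. All 24 members were lower in hybrids by their estimate, with a median of −0.18, and 4 passed: CYCB2;1 (−0.39 ± 0.11), PCNA1 (−0.34 ± 0.09), MCM5 (−0.29 ± 0.09, on the log scale alone) and CYCD3;1 (−0.20 ± 0.04). CYCD3;1, a cyclin that keeps leaf cells dividing, stood at 26.6 to 34.5 CPM in hybrids and 30.8 to 37.0 in inbreds. The number that passed was 1 without C24 A, Ler A, Ler B or Col A, 17 without Col B and 0 without the block. In letter B alone 11 of the 24 were positive (median −0.02), and with C24xLer, C24xCol and ColxLer alone 7 were (median −0.05). The shoot meristem gene KNAT1 fell by 0.72 (adjusted p = 0.032) on the log scale alone and did not pass without LerxC24 B, and the summed shoot meristem markers were 57.8 to 87.0 CPM in hybrids and 64.1 to 75.4 in inbreds. The part of tissue composition in these falls was not tested. No cytosolic ribosomal protein gene passed among 13.

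Nuclear photosystem, light-harvesting and Rubisco genes rose in 12 of 39 cases, by 0.14 to 0.31, with 36 positive and a median of 0.11. PSAN, a photosystem I subunit, was at 2241 to 2950.5 CPM in hybrids and 1527 to 2550.3 in inbreds and rose by 0.31 ± 0.07 (adjusted p = 0.0116). LHCA4, an antenna protein of photosystem I, was at 7699 to 10323 CPM against 6705 to 9516 and rose by 0.23 ± 0.05 (adjusted p = 0.00803). The groups overlapped in both. Of the 12, 4 belong to photosystem I proper (PSAD-2, PSAF, PSAG and PSAN) and 3 to its antenna (LHCA1, LHCA3 and LHCA4), whereas the Rubisco small subunit genes and the Rubisco activase RCA did not pass. The count was 2 without Ler A, 22 without Ler B and 2 without the block. In letter B alone 27 of the 39 were positive (median 0.04). Of 15 chlorophyll synthesis genes, HEMA1, PORB and CHLM rose by 0.32, 0.22 and 0.19, HEMA1 on the log scale alone, and GUN4 fell by 0.19. No chlorophyll gene rose without C24 A, Ler A or Col A, and none passed without the block.

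Sugar starvation and senescence genes gave 5 rises and 1 fall among 21, with a median of 0.22. The rises numbered 3 without C24 A, 7 without Col B or LerxCol B and 1 without the block, where no fall passed. ASN1, an asparagine synthetase gene that darkness and low sugar switch on, ran from 185 to 842 CPM in hybrids (median 352) and from 7.44 to 559 in inbreds (median 99.9), with the Ler libraries lowest. SEN1, induced by darkness, ran from 73.2 to 229 CPM (median 109) against 23.7 to 140 (median 49.1). ASN1 rose by 1.79 ± 0.31 (adjusted p = 0.00765), SEN1 by 1.27 ± 0.22 (adjusted p = 0.00621) and TPS11, of the trehalose phosphate synthase family, by 0.83 ± 0.19. DYL1, a dormancy-associated gene outside the list, rose by 1.05 ± 0.10 (adjusted p = 8.65e-05), from 36.4 to 85.8 CPM in the inbred means to 90.9 to 158 in the hybrid means. SAG12, a marker of leaf senescence, did not pass (−0.09).

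Of the antioxidant enzymes, the iron superoxide dismutase gene FSD1 rose by 0.53 ± 0.12, CAT1 by 0.40 ± 0.07 and CAT3 by 0.37 ± 0.07, and the copper enzyme gene CSD1 fell by 0.27 ± 0.06. DNA methylation and small RNA genes gave 1 rise, in the histone demethylase gene IBM1 (0.21), and 2 falls, in the DNA methyltransferase genes MET1 (−0.22) and CMT2 (−0.16), among 18. IBM1 and MET1 passed on the log scale alone. These counts stand beside 7.38% higher and 5.89% lower over all genes tested. No member of the methylation list passed without the block. With single libraries left out, 0 to 1 rose and 0 to 3 fell.

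Flowering genes gave 3 rises and 3 falls among 24, and the largest were in genes that differed between accessions. FLC, a repressor of flowering, was at 65.4 and 70.9 CPM in C24 and 0.571 to 1.295 in Ler and Col, and was at 27.4 to 71.8 CPM in the 4 kinds of C24 hybrid. The overall difference of 1.77 ± 0.09 was thus carried by 2 of 3 families. MAF1, a relative of FLC, was at 13.4 to 21.9 CPM in all hybrids against 28.3 on average in Col, 6.01 in Ler and 2.16 in C24, and rose by 1.25 ± 0.07 (adjusted p = 2.75e-07), or by 0.49 in mean CPM. The flowering promoters SOC1, FUL and SPL15 fell by 0.51 ± 0.08, 0.64 ± 0.13 and 0.42 ± 0.09. All 8 floral organ genes were negative and 2 passed, SEP3 (−0.71 ± 0.10) and AP1 (−0.50 ± 0.13). SEP3 stood at 14.8 and 11.4 CPM in Ler and at 0.89 to 3.61 in hybrids, and the summed floral markers were 10.96 to 15.6 CPM in hybrids and 11.7 to 30.4 in inbreds.

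Transcripts that 1 accession lacks show the effect of the scale. TGG2, a second myrosinase gene, was at 7.45 CPM in Ler, 1629.7 in C24, 997 in Col and 489.98 to 1564 in the hybrid means. Its log2 difference was 1.79 ± 0.06 (adjusted p = 2.19e-09), while mean CPM differed by 0.04 and did not pass. ESP, the epithiospecifier gene, was low in Col (42.1 CPM against 3496 in C24 and 2580.2 in Ler) and gave 1.42 and −0.02 on the 2 scales. AOP2, which makes alkenyl glucosinolates in C24, gave 1.17 ± 0.09 on the log scale and −0.76, passing as lower, in mean CPM: C24 held 925 CPM and its hybrids 176 to 331. AOP3 gave 1.83 and 0.31. Since AOP2 and AOP3 arose as tandem copies, reads that match both could have been split.

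Families of crosses share parents, so their contrasts are not independent and are set side by side only. Calls numbered 2214 in C24/Col (7.44%), 1259 in C24/Ler (4.23%) and 1258 in Col/Ler (4.22%). This order turned with single libraries left out: C24/Col had 865 without C24xCol A, against 1037 in C24/Ler and 1060 in Col/Ler, and it was also not first without C24 A, Col A or ColxC24 A. They were 1248 higher (4.19%) and 966 lower (3.24%) in C24/Col, 727 higher (2.44%) and 532 lower (1.79%) in C24/Ler, and 717 higher (2.41%) and 541 lower (1.82%) in Col/Ler. A direct test of whether the 3 family contrasts differed passed for 391 genes (1.31%). LSU2 changed by −1.03 ± 0.21, −2.17 ± 0.23 and −1.01 ± 0.21 in C24/Ler, C24/Col and Col/Ler, and that difference did not pass (adjusted p = 0.116). ARR6 changed by 0.75 ± 0.15, 1.68 ± 0.16 and 1.24 ± 0.15, likewise not passing (adjusted p = 0.0922). ARR7 changed by 0.94 ± 0.26, 2.08 ± 0.27 and 1.59 ± 0.26, and its C24/Ler change did not pass in edgeR (adjusted p = 0.0886). FKF1 changed by 0.40 ± 0.08, 0.99 ± 0.08 and 0.49 ± 0.08, and its difference passed (adjusted p = 0.0111). DYL1 changed by 0.97, 1.08 and 1.1025, each ± 0.13.

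**Figure D4:**
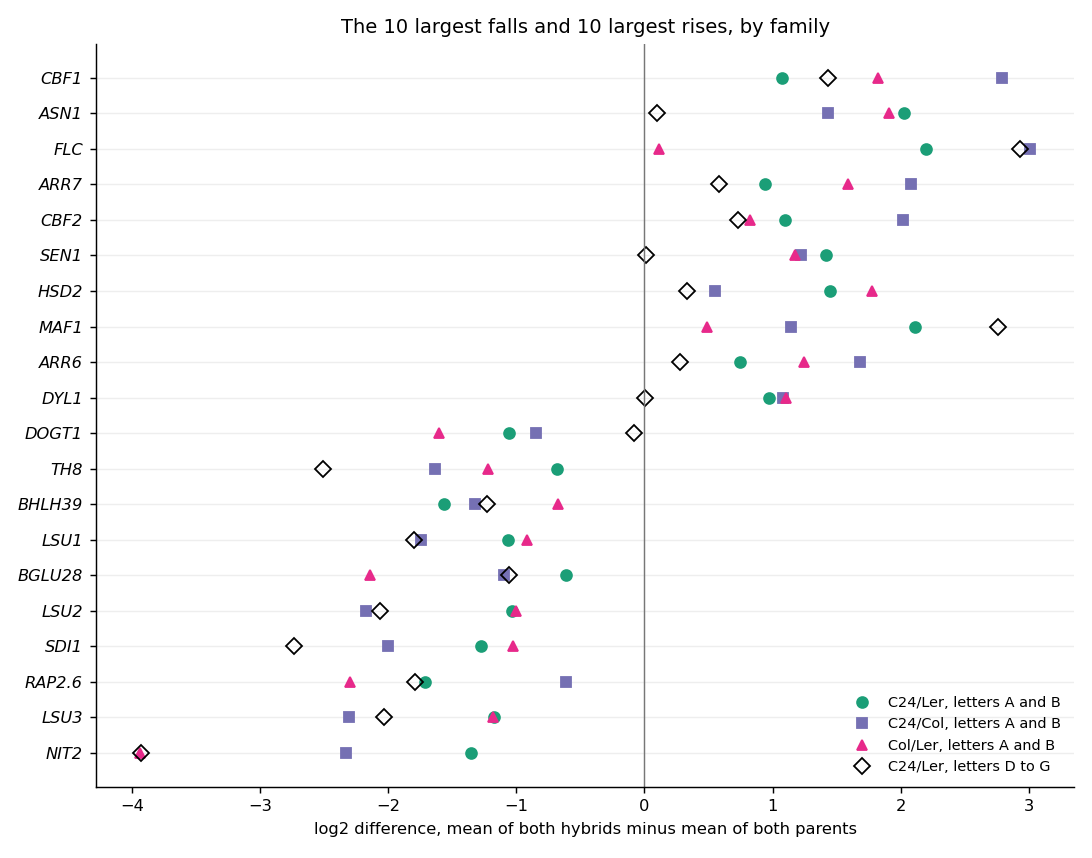
Log2 difference between the mean of both hybrids and the mean of both parents in each family (filled symbols, letters A and B) and in the C24/Ler libraries of letters D to G (open diamonds), for the 10 largest rises and falls named by rule. NIT2, LSU3, SDI1 and LSU2 lie left of 0 in all 4 estimates, while ASN1, SEN1 and DYL1 lie near 0 in the open diamonds.

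Libraries of C24, Ler and their hybrids lettered D to G were not part of the comparison and give the same contrast for that family, but not like for like. Their fit had no block, and letters went with genotype: Ler had F and G, C24xLer D and E, and the LerxC24 columns had no matched letter. Plastid loci held 0.652% of counts in Ler G and 0.354% in 1 LerxC24 library, against 0.032% to 0.089% in the other libraries of that fit. There 166 of 29554 genes passed (0.562%), 137 higher (0.464%) and 29 lower (0.0981%). Of the genes lower on both scales, 83.5% of 1642 were negative in those libraries and 11 passed as lower. Of the genes higher on both, 79.08% of 1434 were positive and 15 passed as higher. Over all 29349 genes measured in both sets 51.12% were positive.

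The sulphur deficiency genes were negative there in 12 of 13 cases, with a median of −1.04 and SDI1 at −2.73. Cell division genes were negative in 23 of 24, flavonoid genes in 18 of 20, phosphate genes in 13 of 14, detoxification genes in 12 of 13 and floral organ genes in 8 of 8. Auxin genes were positive in 32 of 37 and the cold list in 24 of 28. Photosystem, light-harvesting and Rubisco genes, positive in 36 of 39 over letters A and B together, were positive in 25 of 39 (median 0.04). PIF and bHLH growth regulators, positive in 15 of 18 there, were positive in 12 of 18 (median 0.14). Other lists did not keep their lean. Jasmonate genes, negative in 20 of 22 over letters A and B together, were positive in 12 of 22 (median 0.07), senescence genes were positive in 9 of 21 and chlorophyll genes in 6 of 15 (medians −0.025 and −0.03), and heat shock genes in 9 of 20 (median −0.03). The clock list was split, 10 positive and 11 negative, with PRR5 at 0.21 and LHY at 0.02, and ASN1, SEN1 and DYL1 stood at 0.09, 0.01 and 0.00. ARR7 and ARR6 stood at 0.58 and 0.28, below their values in letters A and B, and neither passed in edgeR (adjusted p = 0.588 and 0.809). AT3G15358, AT5G15390 and PIRL9, which had no overlap in letters A and B, stood at 0.022, −0.035 and −0.075 and did not pass. FLC and MAF1 passed in letters D to G, at 2.93 and 2.76.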

How the data were processed

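RNA from whole shoots was extracted on silica columns with DNase treatment, and TruSeq mRNA libraries were prepared commercially and read single- or paired-end on GAIIx or HiSeq machines, per the labels' protocols. The sources used here do not give which library was run which way, the aligner, the counter or the use of strand, so loci that overlap, as 27 of the 108 named genes do, are uncertain. FastQC and the build TAIR10 stand in the submitters' processing notes. The authors deposited raw read counts per locus, 33321 loci in 34 columns, of which 32 matched 1 sample by name and 2 matched a group only. Gene symbols and promoters came from RefSeq's TAIR10.1, which held 32565 of the loci.

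Counts were fitted with edgeR 4.0.16 in R 4.3.3 (TMM normalization, edgeR's filter on low counts by genotype, quasi-likelihood test, p adjusted by Benjamini-Hochberg across every gene in the fit), with a term for each of the 9 genotypes and the letter as a block. The contrast was the mean of 6 hybrids minus the mean of 3 inbreds. A second contrast took the same fit to the log2 ratio of mean CPM. Residual degrees of freedom were 8. Errors are standard errors. They and the p-values rest on the spread between the 2 libraries of a genotype once the letter is taken out. The spread among the 6 hybrid or the 3 inbred genotypes does not enter them. The fit was also run on simulated data with known changes. Those data held no letter effect and differences between accessions in a small set of genes only. That run therefore cannot show how the fit handles the letters or accession differences of the real data. Same-lettered libraries deviated together in all 36 pairs of genotypes (correlation 0.212 to 0.557, median 0.389), so the letters were taken to pair the libraries. Libraries of 1 genotype differed beyond sampling noise (chi-square per locus 44.09 to 112.9).

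Named genes were, among called genes with an official symbol, the 10 largest rises and 10 largest falls that had the same sign in all 3 families and passed on the CPM scale too, up to 4 called members with the largest change of each list, and 10 further genes whether called or not (PR1, CBF1, CBF2, FLC, SOC1, MAF1, PIF4, CCA1, LHY and TT4). Other names complete a list and were chosen after their values were seen. The members, the 27 pathway lists and the tests were chosen with earlier results of these data known, and the iron and cytokinin lists after values here had been seen. Alternatives included DESeq2 1.42.0, other filters and scalings, an additive model, 1 direction of cross or 1 letter at a time, no block, and each library left out in turn. Library measures were tested with scipy 1.17.1.

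Of the other C24 and Ler libraries, C24 D to G, Ler F and G, C24xLer D and E and the 2 LerxC24 columns matched to their group only entered a separate fit without a block. Ler D and E were left out of it, since earlier results had shown transcripts there that are near 0 in other Ler libraries, and letter C was not used.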

Additional observations from a re-analysis of the deposited data

Results flagged for a closer look

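In 2 of 108 groups of inbred libraries tested, 1 library stood far from the other 5. These were CBF1, with 1.401 CPM in Col A, and PR1, with 144 CPM in Ler A. Chance flags about 1 in 20 such groups.

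The 3 families of crosses, which share parents, differed in 14 of the named genes by the direct test (edgeR, adjusted p). Values below are log2 differences in C24/Ler, C24/Col and Col/Ler. The differences in FLC (2.197, 3.01 and 0.11, adjusted p = 5.84e-07), MAF1 (2.11, 1.15 and 0.49, adjusted p = 1.2e-05), TGG2 (2.55, 0.28 and 2.54, adjusted p = 6.83e-08), ESP (−0.11, 2.21 and 2.16, adjusted p = 8.09e-08), AOP2 (2.43, 1.29 and −0.20, adjusted p = 1.73e-06), AOP3 (3.34, 0.00 and 2.13, adjusted p = 9.38e-05) and HSD2, a hydroxysteroid dehydrogenase gene (1.45, 0.55 and 1.77, adjusted p = 0.00936), were in genes whose level differs between accessions.

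The flowering promoters SOC1 (−0.10, −1.53 and 0.12, adjusted p = 0.000218) and FUL (−0.24, −1.57 and −0.11, adjusted p = 0.0109) had their lowest difference from the parents in C24/Col. The jasmonate genes VSP2 (−1.01, −0.50 and 0.17, adjusted p = 0.0132) and CORI3 (−0.86, −0.31 and −0.06, adjusted p = 0.00324) had theirs in C24/Ler. FKF1 (0.40, 0.99 and 0.49, adjusted p = 0.0111) and the expansin gene EXPA16 (−0.11, 0.62 and 0.24, adjusted p = 0.0237) had their highest difference in C24/Col. The phosphate transporter gene PHO1;H1 (−0.20, −0.67 and −0.16, adjusted p = 0.0148) had its lowest difference there. What sets these differences was not tested.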

How the results depend on the processing

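The number of calls moved with the letter term, the letter or cross direction used, and single libraries. Without the replicate block, 727 genes passed (508 higher and 219 lower), 266 in mean CPM (82 and 184), 305, 369 and 334 in the C24/Ler, C24/Col and Col/Ler families, and 202 for the difference between families. All 727 had also passed with the block. At an unadjusted p of 0.05 there were 5314 without it. With C24xLer, C24xCol and ColxLer alone 2375 passed (1278 and 1097; mean CPM 1873, 678 and 1195), and with LerxC24, ColxC24 and LerxCol alone 1514 (891 and 623; mean CPM 923, 328 and 595). In additive models letter A alone gave 1005 lower, and letter B alone 317 (152 and 165). DESeq2's Wald test gave 1921 in C24/Ler, a minimum of 1 CPM in every library gave 151 for the difference between families, keeping Ler D and E gave 86 in letters D to G, and mean CPM gave 1443 higher. The cause was not tested.

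With each library left out in turn, 2033 to 5169 genes passed (1110 to 3048 higher and 923 to 2194 lower), with 2270 without C24 A and 2606 without Col A. In mean CPM the range was 1506 to 4560 (597 to 2284 and 909 to 2294). Families ranged over 411 to 1502, 865 to 3393 and 605 to 2226, their difference over 282 to 505, and letters D to G over 92 to 175. AOP2 and ESP turned to −0.7607 and −0.02473 in mean CPM. CCA1, not called, turned to −0.04477 with C24xLer, C24xCol and ColxLer alone and −0.04605 in letter B, and with single libraries left out ranged from −0.03227 without Col A to 0.06522 without Col B (−0.002975, −0.003135, −0.003296 and −0.006905 without C24xCol B, ColxC24 A, ColxLer A and LerxCol A). Of the 108 named genes, 100 no longer passed in letter B alone, 68 without the block, 50 in letter A alone, 46 with LerxC24, ColxC24 and LerxCol alone and 40 without Ler A. With 2 libraries per genotype, changes of small size are at the limit of what can be called.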
